A study of Homo sapiens with 6 samples.

Results

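The serine/arginine-rich (SR) proteins and the heterogeneous nuclear ribonucleoproteins (hnRNPs) were followed as a group of genes in K562 cells, an established human leukaemia line, that carried either wild-type EP400 or EP400 without its TRRAP-binding region. Members were all genes whose symbol starts with SRSF or HNRNP and is followed by the numbers or letters of these families, with at least 600 reads in total over the 6 libraries. Of 60609 genes in the count files, 161 had such a symbol and 38 reached this total. The 38 were 11 SR protein genes, 21 hnRNP genes and 6 hnRNP symbols of pseudogene form (a P and a number at the end). The split was made on the symbol: 5 of the 6 are annotated as pseudogenes, and HNRNPA1P48 as protein-coding. The other 123 symbols lay under the minimum, and 29 of them had no read in any library, SRSF12 among them. Just inside the minimum were HNRNPA1L2 with 988 reads and HNRNPLP2 with 1086, and just outside it were HNRNPA1P10 with 536 and HNRNPA3P5 with 362.

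EP400 is the remodelling ATPase within the TIP60 chromatin complex. In all 6 libraries the endogenous gene was homozygous for a C-terminal FKBP12 F36V-2xHA degradation tag (EP400-dTAG). The cells had been given 500 nM dTAGV-1, the compound that removes the tagged protein, for 24 h. An EP400 transgene placed at the AAVS1 locus was the remaining source of the protein, wild type in the WT group (3 libraries) and lacking the SANT and HD domains that hold TRRAP in the Delta-TRRAP group (3 libraries). Each transgene line was 1 clone, so that genotype and clone cannot be told apart. The comparison asks which transcripts differ when EP400 is present but cannot hold TRRAP. Poly(A) RNA was read on 1 strand, and the libraries held 35076835 to 42616061 reads assigned to genes.

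SR proteins carry 1 or more RNA recognition motifs and a tail rich in arginine and serine dipeptides, and they bind exonic enhancers, recruit the spliceosome and favour the inclusion of exons. Their tails are phosphorylated by the SRPK and CLK kinases, and transportins bring them into the nucleus. The hnRNPs coat nascent transcripts, and many of them bind silencers and act against SR proteins at the same exons, while others also stabilise, export or translate mRNA. Genes of both families often carry so-called poison exons, whose inclusion gives a transcript that nonsense-mediated decay removes, and through which the proteins limit their own level. Both families are expressed in nearly all dividing cells, those of haematopoietic origin included.

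The windows upstream of 5 members are shown because HNRNPLL, HNRNPC, SRSF3 and SRSF7 were among those with the largest differences and SRSF5 was the only member past the threshold in the other direction. Each is the 250 bases before the transcription start of the RefSeq promoter table (build GRCh38.p14), written 5′ to 3′ on the strand of the gene. The windows lie at chr2:38602929-38603178 (minus strand, HNRNPLL), chr14:21269443-21269692 (minus strand, HNRNPC), chr6:36594112-36594361 (plus strand, SRSF3), chr2:38751362-38751611 (minus strand, SRSF7, which has 2 starts in the table, 1 shown) and chr14:69766892-69767141 (plus strand, SRSF5). Of the 2 SRSF7 windows, the one that held more of the searched motifs was shown, or the first listed if they were equal. Capitals mark 5 short motifs on either strand. The E-box searched for was spelled CACGTG. The CCAAT box was searched for by its own letters. The GC box was spelled GGGCGG. The core of an ETS site was spelled CGGAAG. The TATA box was spelled TATAAA. Matches that overlap were each counted.
HNRNPLL: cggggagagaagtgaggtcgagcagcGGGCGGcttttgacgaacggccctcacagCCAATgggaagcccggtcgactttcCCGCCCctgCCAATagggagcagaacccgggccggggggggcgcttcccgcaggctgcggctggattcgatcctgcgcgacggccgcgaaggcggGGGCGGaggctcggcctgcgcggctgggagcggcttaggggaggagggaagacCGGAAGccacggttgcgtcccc
HNRNPC: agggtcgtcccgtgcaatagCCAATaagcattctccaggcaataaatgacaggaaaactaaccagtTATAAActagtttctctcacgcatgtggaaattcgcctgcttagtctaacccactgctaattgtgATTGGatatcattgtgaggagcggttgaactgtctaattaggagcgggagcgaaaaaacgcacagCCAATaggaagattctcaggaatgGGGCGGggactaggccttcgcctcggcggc
SRSF3: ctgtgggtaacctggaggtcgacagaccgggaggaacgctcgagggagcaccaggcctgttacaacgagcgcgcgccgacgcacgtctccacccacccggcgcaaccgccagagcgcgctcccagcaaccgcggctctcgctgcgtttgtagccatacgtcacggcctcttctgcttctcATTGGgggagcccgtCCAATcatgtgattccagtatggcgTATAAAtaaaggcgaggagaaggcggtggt
SRSF7: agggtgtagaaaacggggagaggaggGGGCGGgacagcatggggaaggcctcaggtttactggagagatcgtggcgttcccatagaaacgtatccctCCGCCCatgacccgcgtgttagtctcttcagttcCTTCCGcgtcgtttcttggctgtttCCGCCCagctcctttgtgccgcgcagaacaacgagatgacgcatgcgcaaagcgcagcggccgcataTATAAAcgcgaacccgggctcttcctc
SRSF5: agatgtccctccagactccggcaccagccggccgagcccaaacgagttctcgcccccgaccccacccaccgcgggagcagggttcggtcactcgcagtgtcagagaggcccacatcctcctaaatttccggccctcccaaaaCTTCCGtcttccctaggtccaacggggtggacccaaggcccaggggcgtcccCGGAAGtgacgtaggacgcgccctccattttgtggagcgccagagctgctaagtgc

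The HNRNPLL window held GC box letters at 224, 170 and 75 bases before the start, CCAAT at 195 and 161, and the ETS core at 22. HNRNPC and SRSF3 both had CCAAT and TATA box letters. The TATA box letters stood 30 bases before the start in SRSF3 but 184 bases before it in HNRNPC. The SRSF7 window shown, which was picked by its motifs, had the TATA box at 27 bases and no CCAAT. In SRSF5 the ETS core letters at 108 and 56 bases were the only matches. None of the 5 windows held the E-box.

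Of the 38 members, 30 matched the RefSeq table by symbol, and HNRNPA1, SRSF2 and the pseudogene-form symbols HNRNPCP2, HNRNPKP4, HNRNPLP2, HNRNPA1P48, HNRNPA3P6 and HNRNPA1P7 were not in it. Over windows of the same length, CCAAT was present in 18 of the 30 members (60%) and in 37% of all 27305 genes of the table. The GC box was present in 20 members (66.7%) and 46.2% of all genes, the ETS core in 13 (43.3%) and 19.4%, the TATA box in 6 (20%) and 13%, and the E-box in 6 (20%) and 7.73%. The members with the E-box were HNRNPA3, HNRNPD, HNRNPDL, HNRNPH2, HNRNPH3 and HNRNPM. These matches describe letters only, and a gene with several starts counted when any of its windows held the motif. The 30 members had 44 windows. All genes of the table were matched to the members neither in windows per gene nor in expression, so the shares do not measure enrichment.

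Transcripts of the SR protein and hnRNP genes were mostly lower in Delta-TRRAP than in WT cells. A gene was taken as fallen or risen when its p in edgeR's quasi-likelihood F test, adjusted by Benjamini and Hochberg's method over all 19114 tested genes (mean normalized count 5 or more), did not exceed 0.01. It was called when it also differed at least 2-fold. By the first measure 27 of the 38 members fell, 1 rose and 10 did not pass, where 27.6% of all tested genes fell and 30.7% rose. Only HNRNPLL was called, against 22.6% of all tested genes (6.08% lower, 16.5% higher). The median log2 fold change of the members was -0.36, with a range from -1.13 to 0.18, and 35 of the 38 values were below 0, where 48% of all tested genes were (63.3% of those at a mean of 1000 or more). The median over all tested genes was 0.03.

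Members are abundant transcripts, and abundant transcripts leaned to lower values as a class. Among the 6804 genes whose mean normalized count reached 1000, 45.9% fell, 22.1% rose, 6.31% were called and the median log2 fold change was -0.14. Of the 31 members at that level, 26 fell, 1 rose and 4 did not pass. For 28 of the 38 members WT and Delta-TRRAP libraries were fully apart, 27 of them lower in Delta-TRRAP, where the same held for 71.1% of all tested genes (33.7% lower). For genes at 1000 or more these shares were 78.3% (51.7% lower). Scaling moved these values together. With library size alone 23 members fell and 2 rose (34.4% of genes at 1000 or more fell), and with TMM factors computed over genes at 1000 or more 21 fell and 2 rose (33% fell). The median of all tested genes then stood at 0.17 and 0.18, and the median of the members lay 0.22 under that of genes at 1000 or more with every scaling tried. The counts are relative to the library, so fewer transcripts per cell across the board would not be seen.

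**Figure D1:**
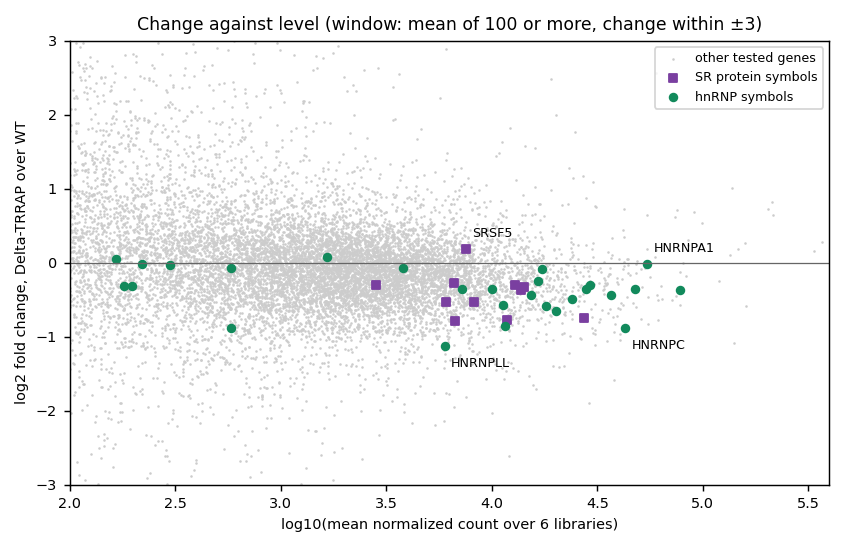
Log2 fold change (Delta-TRRAP over WT) against the log10 mean normalized count of each tested gene with a mean of 100 or more, with SR protein symbols as squares, hnRNP symbols as circles and other genes as grey dots. Members sit towards the high end of expression, and 35 of 38 lie below 0, from HNRNPLL at -1.13 to SRSF5 at 0.18.

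As shares of all gene counts, which no scaling between libraries changes, the members made up 1.65%, 1.72% and 1.69% of the WT libraries and 1.35%, 1.35% and 1.44% of the Delta-TRRAP libraries. Every WT share was above every Delta-TRRAP share. WT libraries averaged 1.69% ± 0.034 and Delta-TRRAP libraries 1.38% ± 0.050 (SD, n = 3 each). The ratio was 0.817 and the exact two-sided permutation p was 0.1, the smallest that 3 against 3 libraries can give. SR protein genes went from 0.338% ± 0.0027 to 0.265% ± 0.014 (ratio 0.784) and hnRNP symbols from 1.35% ± 0.035 to 1.11% ± 0.038 (ratio 0.826), each without overlap and with the same exact permutation p of 0.1. Mitochondrial genes took 3.18% to 3.71% of the WT libraries and 5.07% to 6.24% of the Delta-TRRAP libraries, and with them left out the member shares were 1.71% to 1.77% and 1.42% to 1.53%.

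**Figure D2:**
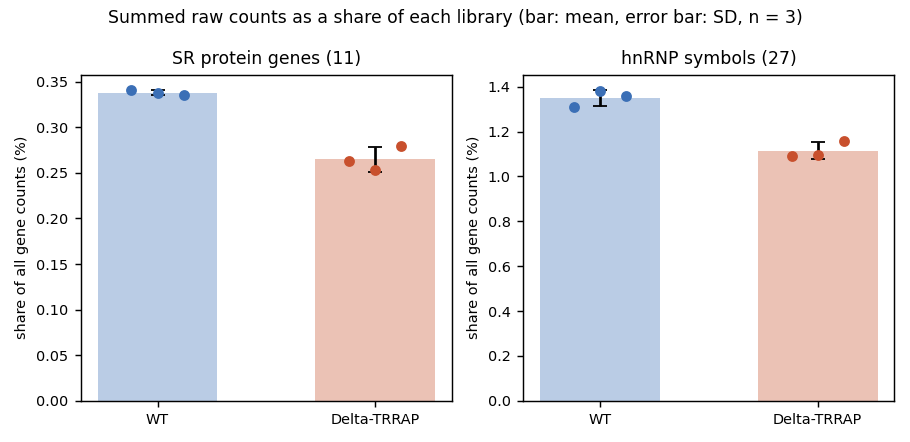
Summed raw counts of the 11 SR protein genes (left) and of the 27 hnRNP symbols (right) as a percentage of all gene counts in each library; points are libraries, bars the mean and error bars the SD (n = 3 per group). In each panel the 3 WT libraries lie above the 3 Delta-TRRAP libraries, with means of 0.338% and 0.265% for SR protein genes and 1.35% and 1.11% for hnRNP symbols.

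A few facts of the libraries bear on these values. The EP400 message, which counts transgene and tagged transcripts alike, had 4897, 4897 and 5377 normalized counts in WT and 5533, 6833 and 4357 in Delta-TRRAP and did not pass (log2 fold change 0.14 ± 0.11 SE, edgeR adjusted p = 0.272). The groups overlapped, and the value turned to -0.03 (adjusted p = 0.768) without Delta-TRRAP replicate 2 and to 0.29 (adjusted p = 0.00149) without Delta-TRRAP replicate 3. A gene count does not show whether the deleted region is present, so it does not check the labels. Erythroid and megakaryocytic markers of K562 cells, 12 of 12 tested, summed to 5627 to 5661 CPM (counts scaled to a common library total) in WT and 3734 to 3818 in Delta-TRRAP, with 5 lower and 4 higher. The transferrin receptor gene TFRC made up most of that sum, and the other 11 markers summed to 887 to 959 CPM in WT libraries against 1259 to 1425 CPM in Delta-TRRAP libraries. These 11 did not rise together. HBZ went from raw counts of 1371, 1643 and 1330 in WT to 10590, 9581 and 11600 in Delta-TRRAP. Others fell, such as LMO2 (log2 fold change -1.14) and ITGA2B (-2.89). Fibroblast markers, 5 of 10 tested, summed to 0.871 to 1.43 and 25.1 to 26.4 CPM, with 3 higher and LUM and PDGFRA at 0 in every library. The collagen gene COL1A2 alone carried most of the difference, and without it the sums were 0.847 to 1.43 and 1.60 to 2.62 CPM. Lymphocyte markers, 4 of 10 tested, summed to 12.4 to 12.8 and 12.08 to 12.97, with none past the threshold and CD8A and MS4A1 at 0. The part of these differences in the results on splicing factors was not tested.

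Among the SR proteins 10 of 11 genes fell, with log2 fold changes from -0.79 to -0.28 and a median of -0.37, and SRSF5 rose. The deepest falls were in SRSF9, SRSF7 and SRSF3. SRSF9, a short relative of SRSF1 with a reduced arginine-serine tail (ENSG00000111786.9, chromosome 12, 120461672 to 120495946), had 8352, 8769 and 8457 normalized counts in WT and 4838, 4628 and 5315 in Delta-TRRAP. Its lowest WT library was thus well above its highest Delta-TRRAP library. The log2 fold change was -0.79 ± 0.06 (SE, n = 3 per group; adjusted p = 8.4e-09). SRSF1, the founding member of the family and a splicing enhancer binding factor with oncogenic activity when overexpressed, fell by 0.54 on the log2 scale. In release 44, 32.7% of its exon length lies within other genes annotated on the same strand, where reads of union counting would be ambiguous. Reads were counted on release 32, and whether the overlap is present there was not tested.

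SRSF3 and SRSF7 are close relatives with a single RNA recognition motif, and both act as adaptors for mRNA export as well as in splicing. SRSF3 (ENSG00000112081.17, chromosome 6, 36594353 to 36605600) gave 35407, 35050 and 32789 normalized counts in WT and 21076, 19524 and 21068 in Delta-TRRAP, the most of any SR gene per library. SRSF7, which differs by a zinc knuckle (ENSG00000115875.19, chromosome 2, 38743599 to 38751494), gave 15474, 14970 and 14365 in WT and 8726, 8363 and 9031 in Delta-TRRAP. Neither gene's groups overlapped, and the log2 fold changes were -0.74 ± 0.05 (adjusted p = 9e-09) and -0.78 ± 0.05 (adjusted p = 3.67e-09). Transcripts annotated for nonsense-mediated decay make up 6 of the 12 SRSF7 models and 2 of the 8 SRSF3 models, and gene counts add them to the coding forms.

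SRSF4, SRSF5 and SRSF6 form the subgroup with paired RNA recognition motifs and long tails, and they did not move together. SRSF5 (ENSG00000100650.16, chromosome 14, 69726900 to 69772005) had 6912, 7125 and 7184 normalized counts in WT and 7781, 7865 and 8418 in Delta-TRRAP. The lowest Delta-TRRAP library was above the highest WT library, and the log2 fold change was 0.18 ± 0.05 (adjusted p = 0.00529). This was the weakest of the 28 passing calls: the adjusted p was 0.0123 to 0.0293 when any library other than Delta-TRRAP replicate 2 was left out, and 0.0132 with replicate number as a block. SRSF6 fell by 0.53 and SRSF4 by 0.28 on the log2 scale, and SRSF4 had an adjusted p of 0.0313 with library size alone.

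Smaller falls were seen in the remaining SR genes. SRSF10, a repressor when dephosphorylated during heat shock and mitosis, was at -0.37, and SRSF11 at -0.33 on the log2 scale. SRSF2, which is recurrently mutated in myeloid neoplasms, was at -0.31 and so was SRSF8, an expressed retrocopy related to it. Their SEs were 0.05 to 0.06. SRSF2 and SRSF4 did not pass with library size alone, and SRSF2, SRSF4, SRSF8 and SRSF11 did not pass with TMM over genes at 1000 or more.

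**Figure D3:**
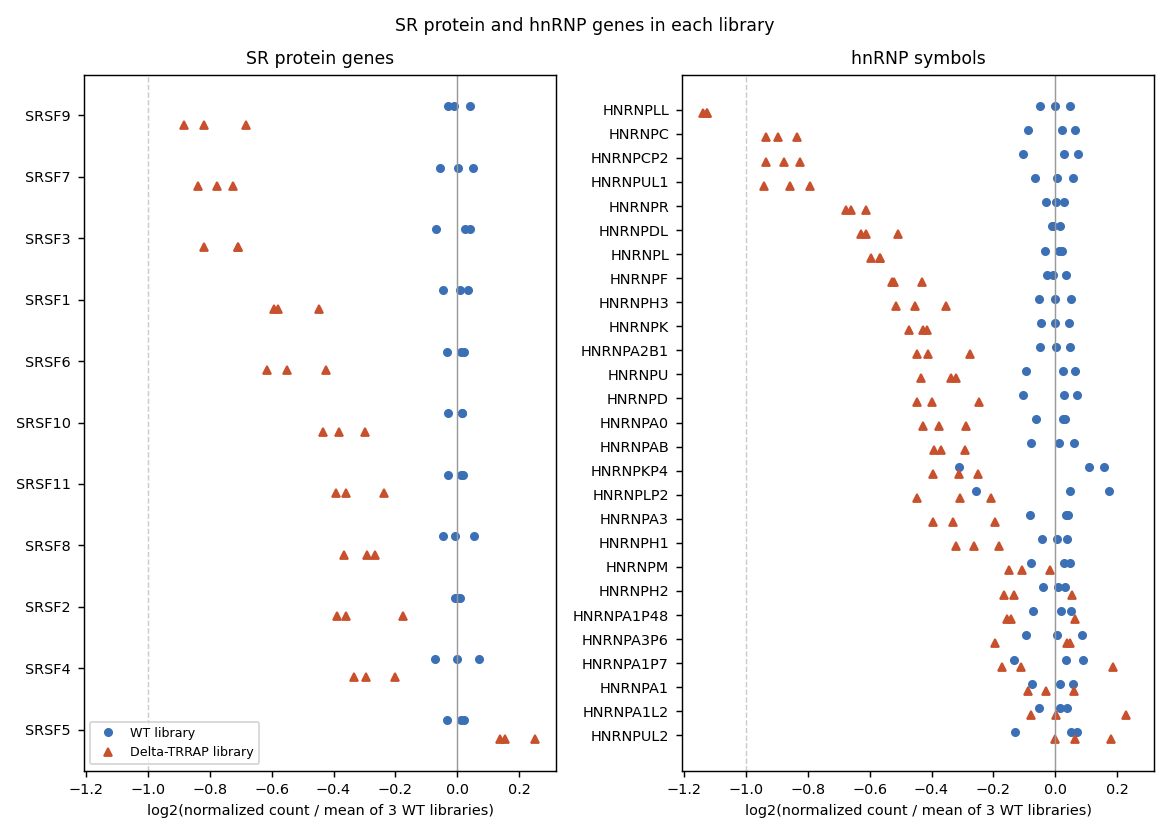
Normalized counts of each SR protein gene and each hnRNP symbol in the 6 libraries as log2 of the ratio to the mean of the 3 WT libraries, 1 row per gene, with WT and Delta-TRRAP libraries in different colours. The Delta-TRRAP points lie left of all WT points for 27 members, from HNRNPLL with the widest separation, and right of them for SRSF5 alone.

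Of the 21 hnRNP genes, 16 fell, with log2 fold changes from -1.13 to -0.25, and HNRNPM, HNRNPH2, HNRNPA1, HNRNPA1L2 and HNRNPUL2 did not pass. The median was -0.36. HNRNPLL, known as a regulator of PTPRC exon skipping in lymphocytes (ENSG00000143889.16, chromosome 2, 38561969 to 38603586), was the lowest. It gave 8475, 8184 and 7921 normalized counts in WT and 3759, 3723 and 3758 in Delta-TRRAP, so that no library came near the other group. The means were 8193 ± 277 and 3747 ± 20.5 (SD, n = 3), and the log2 fold change was -1.13 ± 0.05 (adjusted p = 2.82e-11). It fell just short of 2-fold, at -0.996 and -0.979, with library size alone and with TMM over genes at 1000 or more. HNRNPL, its paralog and a binder of CA repeats, fell by 0.58 on the log2 scale.

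HNRNPC binds uridine tracts and keeps Alu-derived exons out of mRNA. This gene (ENSG00000092199.17, chromosome 14, 21209136 to 21269494) had 58327, 56615 and 52508 normalized counts in WT and 31330, 29193 and 30026 in Delta-TRRAP. The groups were far apart, and the log2 fold change was -0.89 ± 0.06 (adjusted p = 1.55e-09). Its processed copy HNRNPCP2 (chromosome 2, 189923336 to 189924216) had 794, 769 and 702 in WT and 411, 395 and 426 in Delta-TRRAP, a log2 fold change of -0.88 ± 0.07 (adjusted p = 2.33e-08). Reads of near-identical copies can be split between a gene and its pseudogene, and whether these reads came from HNRNPC was not tested.

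HNRNPUL1 and HNRNPUL2 are relatives of HNRNPU, a scaffold-attachment protein that binds chromatin and RNA, and the relatives take part in the response to DNA damage. HNRNPUL1 (ENSG00000105323.17, chromosome 19, 41262496 to 41307787) gave 14174, 14894 and 15427 normalized counts in WT and 8187, 8563 and 7716 in Delta-TRRAP, a log2 fold change of -0.86 ± 0.06 (adjusted p = 2.14e-09) with no overlap. HNRNPU fell by 0.36 on the log2 scale. HNRNPUL2 gave 1478, 1697 and 1675 in WT and 1614, 1690 and 1833 in Delta-TRRAP, which overlapped (0.08 ± 0.06, adjusted p = 0.272). With library size alone HNRNPUL2 passed as higher, at 0.22 (adjusted p = 0.00751). In release 44, 44.3% of its exon length is shared with the readthrough gene HNRNPUL2-BSCL2.

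HNRNPR, a cytoplasmic and nuclear relative of SYNCRIP (ENSG00000125944.20, chromosome 1, 23303771 to 23344336), had 24190, 25210 and 24773 normalized counts in WT and 15481, 16192 and 15660 in Delta-TRRAP. Its groups did not overlap, and the log2 fold change was -0.65 ± 0.05 (adjusted p = 1.39e-08). HNRNPK, which binds cytidine-rich RNA and DNA through KH domains, had 40814, 43433 and 42148 in WT and 31310, 31602 and 30382 in Delta-TRRAP. That was a smaller separation, again with no overlap (-0.44 ± 0.05, adjusted p = 1.4e-06).

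The hnRNP A/B proteins are the core proteins of hnRNP particles and bind exonic and intronic silencers. HNRNPA1 had 51973, 57033 and 55286 normalized counts in WT and 51563, 53597 and 57141 in Delta-TRRAP. These overlapped throughout, with a log2 fold change of -0.02 ± 0.06 (adjusted p = 0.794). HNRNPA2B1 gave 84690, 90522 and 87683 in WT and 64222, 65911 and 72409 in Delta-TRRAP. Here all WT libraries were above all Delta-TRRAP libraries (-0.38 ± 0.06, adjusted p = 2.82e-05). HNRNPA3 (-0.30) and HNRNPA0 (-0.36) also fell, HNRNPA3 not with library size alone. The HNRNPA1 value has the sign of the scaling: it was 0.12 with library size alone and 0.13 with TMM over genes at 1000 or more. HNRNPA1L2, a copy of HNRNPA1, gave 163, 166 and 156 in WT and 162, 153 and 189 in Delta-TRRAP, which overlapped (0.05 ± 0.11, adjusted p = 0.679). In release 44, all of its exon length lies within another gene annotated on the same strand. Reads were counted on release 32, where it had raw counts of 153 to 179 per library. The release 44 overlap thus did not keep its reads from being counted.

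The hnRNP F/H proteins bind runs of guanines. HNRNPF had 27536, 28731 and 27904 normalized counts in WT and 20827, 19446 and 19539 in Delta-TRRAP, with no overlap (-0.49 ± 0.05). HNRNPH3 was at -0.44 and HNRNPH1 at -0.25 (adjusted p = 0.000514) on the log2 scale, and HNRNPH1 did not pass with library size alone. HNRNPH2 gave 3810, 4004 and 3943 in WT and 3569, 3495 and 4069 in Delta-TRRAP, which overlapped (-0.08 ± 0.06, adjusted p = 0.255). In release 44, 15.8% of its exon length is shared with a readthrough gene. The hnRNP D proteins bind AU-rich elements that set mRNA stability. HNRNPDL was at -0.58, HNRNPD at -0.36 and HNRNPAB at -0.35, and all 3 passed. HNRNPM, a binder of GU-rich sites, was at -0.09 ± 0.05 (adjusted p = 0.155), and its sign changed with library size alone (0.04).

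The symbols of pseudogene form other than HNRNPCP2 did not pass. HNRNPA1P48 had 569, 620 and 605 normalized counts in WT and 541, 537 and 625 in Delta-TRRAP, HNRNPA3P6 had 282, 319 and 302 and 263, 309 and 311, and HNRNPA1P7 had 237, 228 and 203 and 198, 253 and 206. In each the groups overlapped, with log2 fold changes of -0.08, -0.03 and -0.02 (adjusted p = 0.367, 0.747 and 0.862). HNRNPKP4 and HNRNPLP2 were both at -0.32 (adjusted p = 0.0297 and 0.0292). The median of the 6 was -0.20, at mean normalized counts of 181 to 583.

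Levels of different genes were set side by side per kilobase of exon, with the exons of all annotated transcripts of a gene merged. That length can exceed the length of the expressed mRNA, so the order of genes depends on the annotation. It was 12.6 kb for HNRNPA2B1 with 49 transcripts and 3.27 kb for HNRNPF with 8. On this scale HNRNPA1 stood highest, with a mean normalized count of 8128 per kb over all 6 libraries. HNRNPF followed with 7332, HNRNPK with 6424 and HNRNPA2B1 with 6150. The order differed between the groups. In WT it was HNRNPF with 8572 per kb, HNRNPA1 with 8177, HNRNPC with 7653, HNRNPK with 7391 and HNRNPA2B1 with 6948. In Delta-TRRAP it was HNRNPA1 with 8078, HNRNPF with 6092, HNRNPK with 5456 and HNRNPA2B1 with 5353, and HNRNPC stood at 4139. In order of share of all member counts, HNRNPA2B1 led in both groups, with 12.7% in WT and 13.2% in Delta-TRRAP. HNRNPC came next in WT with 8.12% and made up 5.89% in Delta-TRRAP. HNRNPA1 came next in Delta-TRRAP with 10.5% and made up 7.97% in WT.

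Ratios of related genes within a library do not depend on scaling between libraries, and 16 such pairs of paralogs were formed. The pairs were chosen after the values were seen. In 13 of the 16 pairs WT and Delta-TRRAP libraries were fully apart, with the ratio lower in Delta-TRRAP in 10 and higher in 3. No such share was computed for other pairs of genes, so the number of pairs apart cannot be called particular to these genes. For single genes at 1000 or more, a different measure, 78.3% were fully apart. The exact two-sided permutation p was 0.1 for each of the 13, the smallest it can be, and 0.123 after Benjamini-Hochberg adjustment over the 16 pairs, so no pair passed 0.05. For HNRNPA2B1 to HNRNPA1 the ratio was 1.63, 1.59 and 1.59 in WT and 1.246, 1.230 and 1.267 in Delta-TRRAP. Every WT ratio was thus above every Delta-TRRAP ratio. The ratios of HNRNPA3 and HNRNPA0 to HNRNPA1 were lower as well, going from 0.592 ± 0.011 to 0.484 ± 0.0094 and from 0.148 ± 0.0023 to 0.117 ± 0.0044 (SD, n = 3).

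Some of the other pairs differed by more. HNRNPLL to HNRNPL was 0.640, 0.595 and 0.580 in WT and 0.411, 0.414 and 0.411 in Delta-TRRAP. Relative to HNRNPU, HNRNPUL1 went from 0.277 ± 0.0047 to 0.196 ± 0.013 and HNRNPUL2 from 0.0301 ± 0.00088 to 0.0410 ± 0.0020 (SD, n = 3), in opposite directions. Relative to SRSF4, SRSF5 went from 0.981 ± 0.030 to 1.34 ± 0.012 and SRSF6 went from 0.990 ± 0.052 to 0.830 ± 0.032 (SD, n = 3). The 3 pairs whose groups overlapped were SRSF7 to SRSF3 (0.434 ± 0.0061 and 0.424 ± 0.0084, exact permutation p = 0.3), SRSF8 to SRSF2 (0.2201 and 0.2203, exact permutation p = 1) and HNRNPAB to HNRNPD (0.356 and 0.360, exact permutation p = 0.7).

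**Figure D4:**
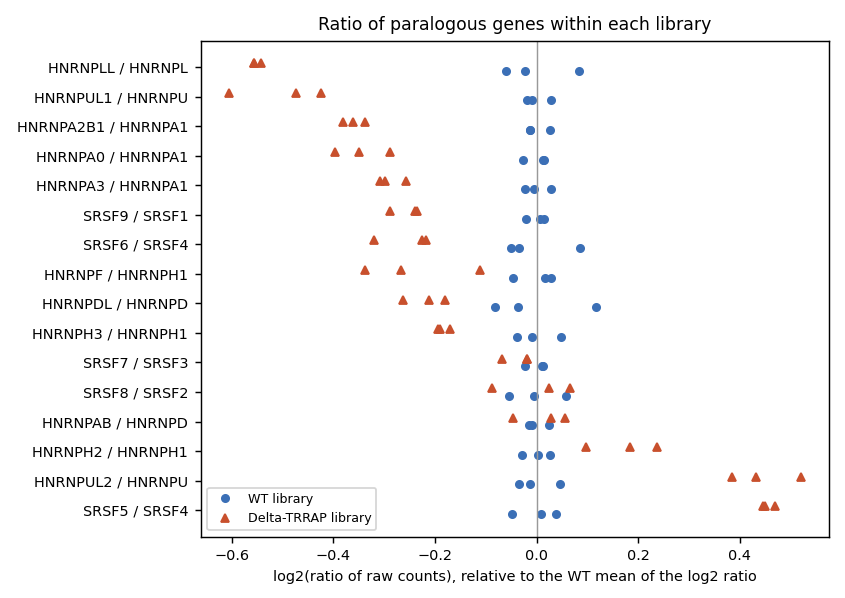
Log2 ratio of raw counts of 16 paralog pairs in each of the 6 libraries, set relative to the mean WT ratio of the pair. The ratios of HNRNPLL to HNRNPL and of HNRNPUL1 to HNRNPU lie farthest to the left in Delta-TRRAP libraries, and those of SRSF5 to SRSF4 and HNRNPUL2 to HNRNPU farthest to the right.

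Members lie at many places in the genome, and their neighbours were read to see whether a member moved with its surroundings. For each member the median log2 fold change of the 10 nearest genes on either side, each at a mean normalized count of 100 or more, was computed. For 8 of the 38 members this median was -0.3 or lower, and all 8 themselves fell. All 8 are among the 31 members at 1000 or more, and 11.7% of all genes at that level had such neighbours. The lowest neighbourhood was that of SRSF9, with a median of -0.74 and 19 of 20 neighbours below 0, against -0.79 for SRSF9. HNRNPL had neighbours at -0.60, 20 of 20 below 0, against its own -0.58, and SRSF6 had neighbours at -0.52 against -0.53. HNRNPUL1, HNRNPU, SRSF4 and the adjoining HNRNPD and HNRNPDL on chromosome 4 had neighbour medians from -0.38 to -0.30.

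The other 19 members that fell had neighbour medians above -0.3, and their own median log2 fold change was -0.44. SRSF3 at -0.74 had neighbours at 0.11, HNRNPR at -0.65 had neighbours at 0.07 and HNRNPC at -0.89 had neighbours at -0.16. HNRNPA0 at -0.36 was the one member with neighbours at or above 0.3 (0.34, with 2 of 20 below 0). HNRNPLL and SRSF7 lie close to each other on chromosome 2 and their windows of neighbours overlap, with a median of -0.25 for both. In all, 31 of 38 members lay below the median of their neighbours. At 1000 or more this held for 26 of 31 members and for 55.7% of all genes. With 5 or 20 neighbours on either side the number of members with a neighbour median of -0.3 or lower was 5. SRSF9, HNRNPL, SRSF6 and HNRNPUL1 were among them at both sizes, whereas HNRNPU, SRSF4, HNRNPD and HNRNPDL were so at neither. SRSF7 was the further member with 5 neighbours, and HNRNPAB with 20.

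**Figure D5:**
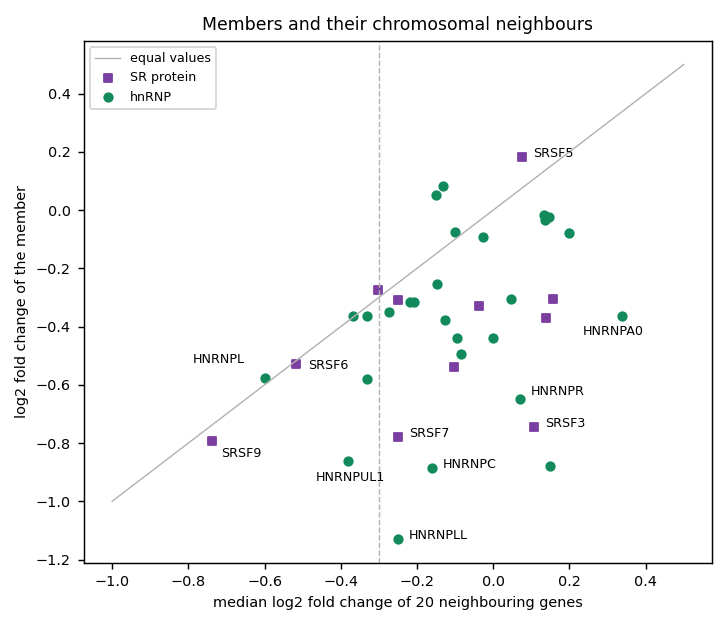
Log2 fold change of each member against the median log2 fold change of its 20 nearest expressed genes, with SR proteins as squares, hnRNP symbols as circles, a line at equal values and a dashed line at -0.3. SRSF9, HNRNPL and SRSF6 lie on the line of equal values, whereas HNRNPLL, HNRNPC, SRSF3 and HNRNPR lie far below it.

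Genes that work with these proteins were read from 6 lists, none of which holds a member. Over the 130 tested genes of the lists 75 fell, 18 rose and 37 did not pass, with a median log2 fold change of -0.24. For reading these counts, 27.6% of all tested genes fell and 6.08% were called lower, and 45.9% of genes at 1000 or more fell, so that lists with about that share are not set apart by it. The match is rough, as some lists also hold genes under that level, such as PCBP3 at a mean of 13 and CLK4 at 439. The hnRNPs and relatives that carry other symbols had 8 lower, 3 higher and 5 not passing of 16, close to the share for abundant genes, with a median of -0.18. Lowest were PTBP3 (-0.86 ± 0.06) and PTBP2 (-0.75 ± 0.08), paralogs of the polypyrimidine tract binding protein. CIRBP, the cold-inducible RNA binding protein, rose by 0.52 ± 0.06, and PCBP3 by 1.37 ± 0.37 from raw counts of only 9, 10 and 3 in WT.

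SR-related proteins and activators had 9 lower, 3 higher and 9 not passing of 21 tested genes, with a median of -0.17. RBM39, a partner of the U2AF dimer, was lowest (-0.93 ± 0.05), followed by U2AF2, which binds the polypyrimidine tract (-0.52 ± 0.05). SCAF4 rose by 0.50 ± 0.06 and SRRM3, a neuronal microexon factor, by 0.91 ± 0.25. The raw counts of SRRM3 were only 22, 17 and 14 in WT and 30, 38 and 31 in Delta-TRRAP. Among the kinases and import receptors of SR proteins 5 fell, 1 rose and 4 did not pass of 10, again close to that share, with a median of -0.23. TNPO1, a transportin that imports hnRNPs, fell by 0.81 ± 0.06 and the kinase PRPF4B by 0.46 ± 0.05, while the kinase CLK3 rose by 0.49 ± 0.05. TNPO3, the other transportin of the list, did not pass (-0.13 ± 0.07, edgeR adjusted p = 0.0967), and its groups overlapped.

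The snRNP core list holds the Sm, LSm and snRNP-specific proteins and further spliceosome proteins, such as PRPF19, CDC5L, AQR and DHX helicases. It had 34 lower, 3 higher and 9 not passing of 46, with a median of -0.35, and 5 of its genes were called lower. LSM7 (-1.51 ± 0.06) and SNRPG (-1.46 ± 0.08) were lowest, and SNRNP27 (0.41 ± 0.06) and the helicase DHX8 (0.37 ± 0.08) highest. Nonsense-mediated decay factors, which remove poison-exon transcripts, had 9 lower, 2 higher and 6 not passing of 17, with a median of -0.20. DHX34 (-0.75 ± 0.05) and MAGOHB (-0.72 ± 0.07) were lowest, and NBAS (1.03 ± 0.10) and SMG6 (0.29 ± 0.07) highest.

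Tissue-restricted and other regulators of alternative splicing were more mixed, with 10 lower, 6 higher and 4 not passing of 20 tested genes out of 32 listed, and 3 called in each direction. CELF2, a regulator of heart, muscle and T cell splicing, had 5825, 5936 and 6531 normalized counts in WT and 1612, 1699 and 1533 in Delta-TRRAP (-1.92 ± 0.06). CELF4 was at -1.33 ± 0.33 with raw counts of 23, 19 and 27 in WT and 13, 6 and 8 in Delta-TRRAP. MBNL3, a muscleblind protein, went from raw counts of 21, 14 and 21 to 823, 970 and 640 (5.44 ± 0.17). The epithelial factor ESRP2 had 1 read in all WT libraries and 31 in all Delta-TRRAP libraries, a depth-scaled ratio of 31.2 with an exact 95% interval of 5.20 to 1272 that covers counting error only.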

How the data were processed

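Poly(A) RNA of 6 K562 libraries was analysed, grouped by the sample titles. The authors deposited raw counts of reads per gene for each library: reads were aligned to hg38 with STAR, uniquely mapped reads were kept, and HTSeq 2.0.2 counted them in reverse-stranded union mode on GENCODE release 32. Unique mapping lowers the counts of near-identical copies. A normalized table and a table of the authors' own fold changes and p-values were not used, nor were 3 columns of another condition in the former.

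Counts were tested in edgeR 4.0.16 (R 4.3.3) with TMM factors, group as the only term and the quasi-likelihood F test, where the mean normalized count was 5 or more. Normalized counts are counts over the TMM-scaled library size, itself divided by its geometric mean over libraries. SE is the absolute log2 fold change divided by the root of F. Thresholds follow the study, which used DESeq2. Counts of unlike length were divided by exon length in GENCODE release 44, which also gave the positions (GRCh38). The pipeline was tested on simulated data.

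Members and lists were chosen with earlier results of these data known. Per-library values are given for the 8 lowest and 8 highest log2 fold changes, called members and the 4 highest per kb, and from each list the 2 lowest and 2 highest genes past the threshold. Same-numbered libraries did not deviate together (correlations -0.0095, -0.029 and -0.019), so replicate number was no term. Replicates of a group differed beyond counting error (chi-square over degrees of freedom 4.93 to 15.5). The labels do not say that libraries came from separate cultures, so p-values measure the spread between these libraries. Alternatives were DESeq2 1.42.0, limma 3.58.1 (voom), other scalings and filters, a replicate block and leaving out each library. TMM over genes at 1000 or more and the paralog pairs were added after the data were seen.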

Additional observations from a re-analysis of the deposited data

How the results depend on the processing

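Over 15 alternatives the 38 members gave 570 fits, of which 516 kept direction and side of the threshold, 19 no longer passed, 6 newly passed and 29 changed sign. No sign change fell on the 28 members that passed, and 21 of these passed under every alternative. The number of members lower ran from 21 to 29. Called members numbered 0 with library size alone and 0 with TMM over genes at 1000 or more, and 8 at a fold of 1.5. Members higher numbered 2 with library size alone, 0 with no filter on low counts, 2 with TMM over genes at 1000 or more, and 0 to 1 with 1 library left out. With the replicate block, members higher numbered 0 and members lower 27, and it changed no other call of the members. The median log2 fold change of the members was -0.26 with upper quartile scaling, -0.23 with library size alone, -0.29 with a minimum mean of 50 and -0.21 with TMM over genes at 1000 or more. EP400 ran from -0.026 to 0.29 with 1 library left out. Members with shifted neighbours numbered 5 with 5 neighbours per side and 5 with 20.

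Some of the members that did not pass changed sign with scaling. With upper quartile scaling, library size alone and TMM over genes at 1000 or more, in that order, HNRNPM was at 0.011, 0.042 and 0.060, HNRNPH2 at 0.023, 0.054 and 0.072, HNRNPA1P48 at 0.025, 0.056 and 0.074, HNRNPA1 at 0.084, 0.12 and 0.13, HNRNPA3P6 at 0.066, 0.098 and 0.12, and HNRNPA1P7 at 0.076, 0.11 and 0.13. With a minimum mean of 50, HNRNPA1 was at 0.055, HNRNPA3P6 at 0.038 and HNRNPA1P7 at 0.049. With 1 library left out, HNRNPA1 ran from -0.061 to 0.012, HNRNPA1L2 from -0.040 to 0.12, HNRNPA3P6 from -0.088 to 0.037 and HNRNPA1P7 from -0.14 to 0.041. The scalings differ by 1 constant per library, which moves all genes alike. Limits are the 3 libraries and 1 clone per group, gene counts that add all isoforms, and the low depth of the pseudogene-form symbols.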

Other observations

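Under the read minimum, and so outside the group described above, the pseudogene symbol HNRNPCP4 (ENSG00000263179.1) had raw counts of 9, 19 and 8 in WT and 52, 56 and 41 in Delta-TRRAP. Its log2 fold change was 2.05 in edgeR's quasi-likelihood test (adjusted p = 7.39e-06), with all 3 Delta-TRRAP libraries above all 3 WT libraries, whereas HNRNPC and HNRNPCP2 fell. This symbol was chosen after its values were seen.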
